A study of Mus musculus with 8 samples.

Results

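The 10 genes described here encode 6 EphA receptors (*Epha3*, *Epha4*, *Epha5*, *Epha6*, *Epha7* and *Epha8*) and 4 of their ligands, the ephrin-As (*Efna2*, *Efna3*, *Efna4* and *Efna5*). They were taken by gene symbol from a table of 28432 genes counted by RNA sequencing (RNA-seq) in the mouse retina. Retinas were collected at E15.5. The pregnant dams had been given tamoxifen by gavage on E11.5, at a dose between 0.15 and 0.2 mg per gram. The 4 control embryos were *Lhx2* flox/+ and the 4 CKO embryos *Lhx2* flox/KO, and each sample held both retinas of 1 embryo. All embryos, controls included, were heterozygous for *Hes1* CreERT2, a tamoxifen-dependent Cre knocked into the *Hes1* locus. By the paper, all were also heterozygous for the *Rosa26* ai14 reporter, whose tdTomato was used to pick recombined embryos. The controls kept a wild-type allele of *Lhx2*, which encodes a LIM homeodomain transcription factor of retinal progenitor cells, and Cre acted only in cells that use the *Hes1* promoter.

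EphA receptors are receptor tyrosine kinases on the cell surface, and ephrin-As are proteins held on the surface of a neighboring cell by a glycosylphosphatidylinositol anchor. Contact between them signals into both cells and usually repels growing axons. In the retina they are best known for graded expression along the nasal to temporal axis, where the temporal ganglion cells carry more EphA receptor, the nasal ones more ephrin-A, and the opposing gradients guide ganglion cell axons to ordered positions in the brain. Because whole retinas were sequenced, the counts give the amount of each transcript but not its gradient.

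Reads aligned to mm10 were counted per gene by the authors, with totals of 13143587 to 15063867 per control sample and 13955259 to 19099937 per CKO sample. *Lhx2* itself gave 3081 to 3631 normalized counts in controls and 2557 to 2868 in the CKO; reads outside the deleted exons count toward it, so this checks neither the deletion nor the labels. By *Xist*, 2 control embryos (replicates 1 and 4) and 1 CKO embryo (replicate 1) were female. All 10 progenitor, 13 ganglion cell and 7 photoreceptor precursor markers passed the filter on low counts, as did the 8 of amacrine and horizontal cells, while 6 of 8 lens markers and 5 of 8 periocular mesenchyme markers had a mean under 20 normalized counts.

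The promoters of the 10 genes were read from RefSeq (GRCm38.p6), which holds 12 windows for them, each from 250 bases before the start site to 50 bases from it on. LIM homeodomain factors bind sites of the TAATT type, so the letters TAATTA and TAATTG were searched on both strands (TAATTA reads the same on both, and TAATTG reads CAATTA on the other; the pair can overlap in a sequence, but did not here). TAATTA stood in the window of 1 gene, *Epha5*, 230 bases before its start site, and TAATTG in that of 1 gene, *Epha7*, beginning 5 bases before it. The other 8 genes held neither. Of all 32851 windows of 300 bases, 5.29% held TAATTA, 8% held TAATTG or CAATTA and 12.4% held either. The sequences that hold a match are shown with that of *Epha6*, the gene with the largest difference between the genotypes, which holds none; capitals mark the match, and the windows run from 250 bases before the start site to base 20 of the transcript.
Epha5, chr5:84417363-84417632, minus strand: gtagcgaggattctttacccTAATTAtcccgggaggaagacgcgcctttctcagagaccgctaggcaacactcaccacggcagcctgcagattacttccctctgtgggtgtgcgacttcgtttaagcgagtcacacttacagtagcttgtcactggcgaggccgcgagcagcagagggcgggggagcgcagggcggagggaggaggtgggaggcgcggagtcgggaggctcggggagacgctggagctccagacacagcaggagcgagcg
Epha7, chr4:28812881-28813150, plus strand: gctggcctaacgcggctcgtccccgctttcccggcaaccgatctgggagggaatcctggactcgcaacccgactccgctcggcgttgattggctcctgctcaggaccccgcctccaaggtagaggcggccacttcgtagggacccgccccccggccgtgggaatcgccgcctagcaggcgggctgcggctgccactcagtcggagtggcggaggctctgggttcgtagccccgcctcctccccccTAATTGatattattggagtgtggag
Epha6, chr16:60605512-60605781, minus strand: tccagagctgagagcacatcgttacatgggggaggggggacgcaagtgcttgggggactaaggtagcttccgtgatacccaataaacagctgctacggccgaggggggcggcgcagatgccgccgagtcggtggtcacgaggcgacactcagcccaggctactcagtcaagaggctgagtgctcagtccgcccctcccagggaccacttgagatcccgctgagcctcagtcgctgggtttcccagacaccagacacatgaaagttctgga
A match is a description of the letters and says nothing of binding by Lhx2. The windows of the 10 genes were rich in G and C (55.7% to 84.3%, against a median of 52.7% over all windows).

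All 10 genes were expressed in the embryonic retina and passed a filter that kept genes reaching 20 normalized counts in 3 or more samples, a rule taken from the methods of the study, although the genes it kept here need not be the set the study tested. Normalized counts are counts divided by the size factor of the sample. To compare genes with each other, they were also divided by exon length, in kilobases (kb) of GENCODE M21. *Efna2* stood first in the controls, with a level of 304 ± 35.2 normalized counts per kb (SD, n = 4). The next were *Epha8* with 256 ± 32.2, *Epha5* with 194 ± 16.8 and *Efna5* with 194 ± 18.1. *Efna4* had 138 ± 23.3 and *Epha3* 95.2 ± 8.20 normalized counts per kb. The low end held *Epha4* with 60.7 ± 5.46, *Efna3* with 59.7 ± 11.1, *Epha6* with 48.2 ± 11.6 and *Epha7* with 22.9 ± 3.08.

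**Figure D1:**
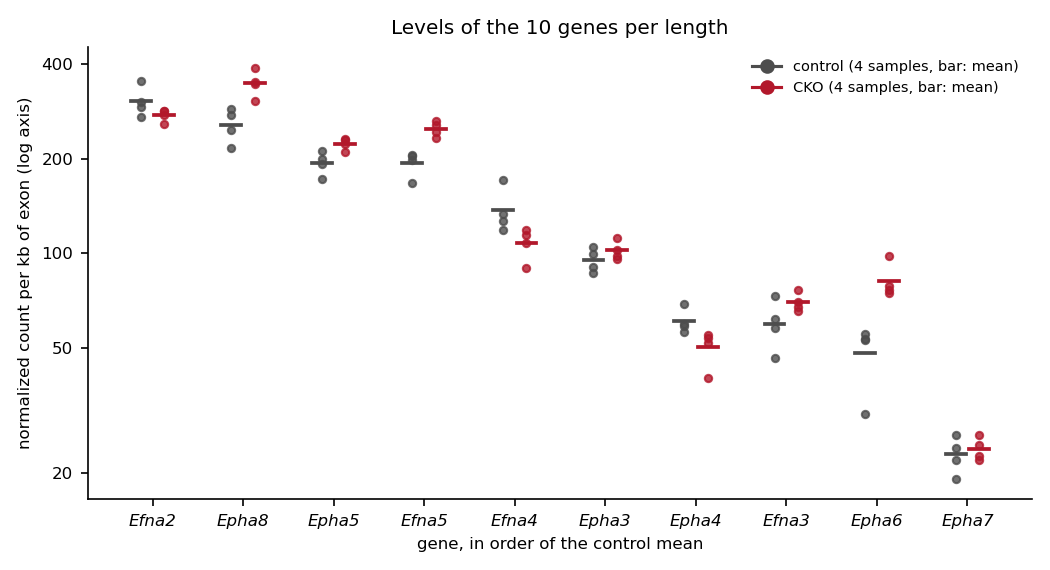
Normalized counts per kb of exon (log axis) of the 10 genes in order of their control mean, with 1 point per sample (gray for control, red for CKO, 4 each) and a bar at the mean. *Efna2* and *Epha8* stand at the upper end in both genotypes and *Epha7*, at 22.9 and 23.9, at the lower end.

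Of the 9 neighboring pairs in this order, 5 had overlapping ranges over the control samples, so the place of *Epha8* against *Efna2*, *Efna5* against *Epha5* and *Efna4*, and *Efna3* against *Epha4* and *Epha6* was not resolved. In the CKO *Epha8* was first, with 347 ± 34.5 normalized counts per kb, and *Epha6* was in place 7, against 9 in the controls, with 81.8 ± 10.9. Its CKO samples overlapped those of *Epha3* above and *Efna3* below it, and 4 of the 9 neighboring pairs overlapped in the CKO, so its step past *Efna3* was resolved in neither genotype. Its step past *Epha4* was resolved with these exon lengths: in the controls *Epha6* lay below *Epha4* (30.9 to 55.3 against 56.3 to 68.6 normalized counts per kb). In the CKO it lay above (74.6 to 97.9 against 39.9 to 55.1). The order rests on the annotation, most of all for *Epha5*, whose exons add up to 16.739 kb while its principal transcript has 4675 bases. Divided by the latter, its control level was 694 normalized counts per kb and the first of the 10. With such lengths none of the other 9 genes moved by more than 1 place, but *Epha6* and *Epha4* overlapped in the controls. Not divided by length, they overlapped in the CKO (395 to 518 and 322 to 444 normalized counts). The step of *Epha6* past *Epha4* thus also depends on the lengths used.

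None of the 10 genes passed the study's cutoff between the genotypes, an adjusted p below 0.001, by edgeR's quasi-likelihood test; 8.61% of the 13891 genes tested did (3.64% higher and 4.97% lower in the CKO). At an unadjusted p below 0.05 there were 6 of 10, of which 4 were higher and 2 lower in the CKO, where 43.6% of all genes passed (21.3% higher, 22.3% lower). DESeq2 and limma voom gave the same counts of the 10, with 41.7% of all genes (21.2% higher, 20.4% lower) and 43.5% (21.2% higher, 22.3% lower). At an adjusted p below 0.05, a looser cutoff than the study's, there were 4 of 10 by edgeR, *Epha6*, *Epha8*, *Efna5* and *Epha5*, all higher, where 15.9% of all genes were higher and 17.4% lower, so the share of the 10 in either direction (all genes: 33.3%) was near the background. By DESeq2 and by limma voom there were 5 of 10 at that cutoff, the fifth being *Epha4*, which was lower (0.0482 and 0.0494). Of all genes 33.4% passed it by DESeq2 (17% higher, 16.4% lower) and 33.3% by limma voom (16% higher, 17.3% lower). DESeq2, the tool of the study, called 3 of the 10 higher at an adjusted p below 0.001, *Epha6* (3.7e-05), *Epha8* (8.4e-05) and *Efna5* (1.0e-04), against 17.2% of all genes (8.34% higher), and limma voom called none, against 8.44% (3.54% higher). In 5 of the 10 genes the genotypes did not overlap, as in 33.8% of all genes. The median log2FC (CKO over control) of the 10 was 0.16, against 0.01 over all genes tested. Of the 10, 7 were above 0, where 7052 of the 13891 genes tested were. Other fits by edgeR gave 0 to 3 of the 10, always higher in the CKO. With no filter on low counts there were 3, the same genes as by DESeq2 (7.23% of all genes, 3.39% higher). With embryo sex in the fit or with 1 surrogate variable there was 1, *Epha6* (8.31% of all genes in each, 3.54% and 3.53% higher), and with the replicate block there was none (4.87%, 1.96% higher).

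**Figure D2:**
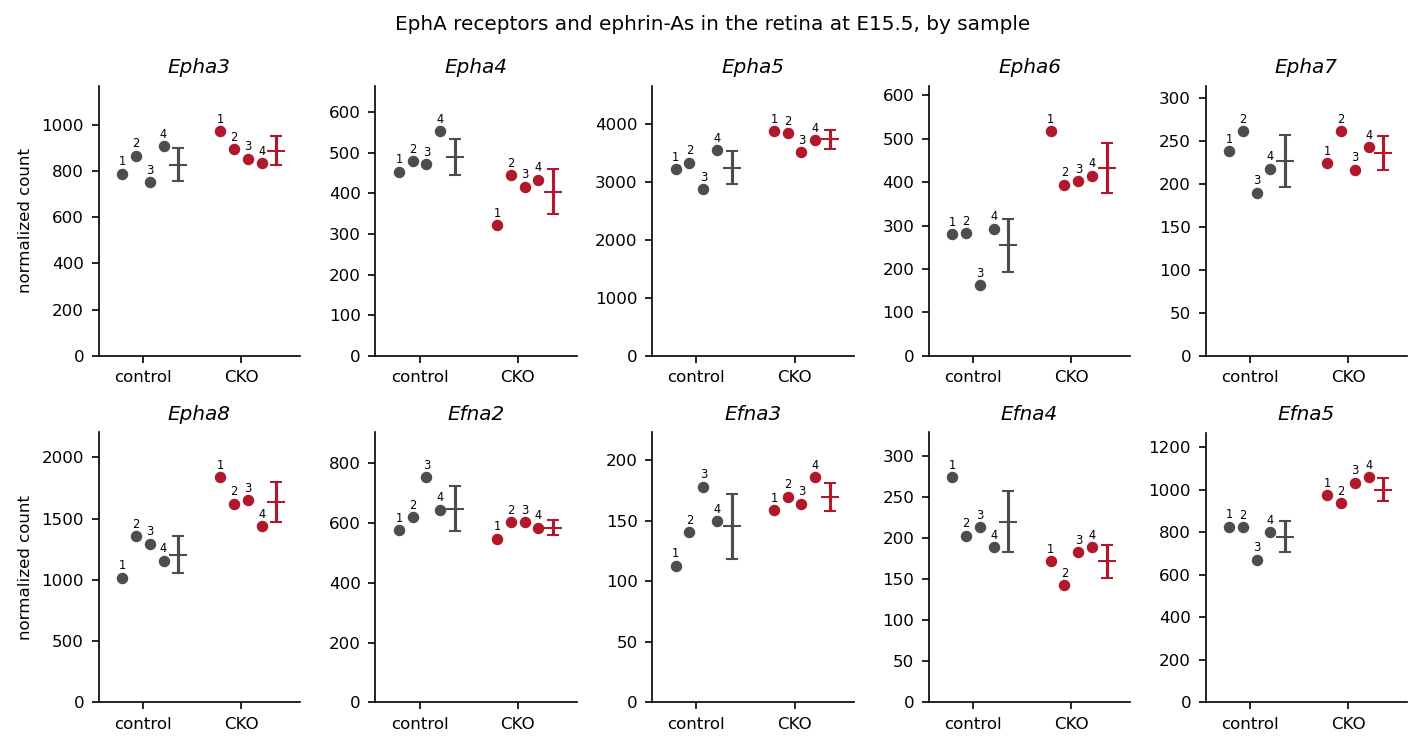
Normalized counts of each gene in the 4 control (gray) and 4 CKO (red) samples, numbered by replicate, with the mean and SD beside the points. In *Epha6*, *Epha8* and *Efna5* each CKO sample lies above each control sample, and in *Epha4* and *Efna4* each lies below.

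*Epha6* (ENSMUSG00000055540, chromosome 16, 59653483 to 60605531 of GRCm38, minus strand) encodes a receptor that is expressed more in temporal than in nasal ganglion cells of the mouse. Control replicates 1 to 4 held 281, 282, 163 and 293 normalized counts of it, and CKO replicates 1 to 4 held 518, 395, 403 and 415. The genotypes did not overlap, but control replicate 3 was far below the other controls and CKO replicate 1 far above the other CKO samples. The means were 255 ± 61.2 and 433 ± 57.6 (SD, n = 4), a fold of 1.70 (95% interval 1.32 to 2.19; log2FC 0.76, SE 0.166), the largest of the 10 genes, which did not pass the cutoff (edgeR adjusted p = 0.0044, range over 19 alternatives 4.9e-06 to 0.0114). Without those 2 samples, an alternative chosen after seeing the data, the log2FC fell to 0.50 and passed (SE 0.0707, edgeR adjusted p = 1.4e-04; 15.4% of all genes passed in that fit, 7.62% higher). With embryo sex in the fit the log2FC was 0.86 and also passed (edgeR adjusted p = 8.0e-04). The 1 female CKO embryo was CKO replicate 1, the high sample, so within the CKO embryo sex and that sample cannot be told apart. With 1 surrogate variable the values were nearly the same (log2FC 0.85, edgeR adjusted p = 8.8e-04), so the 2 fits are not separate checks. The exons share 107 bases with *Gm9017* on the other strand, which held at most 14 reads in a sample.

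*Epha8* (ENSMUSG00000028661, chromosome 4, 136929419 to 136956816, minus strand) encodes a receptor of the same family that is found in the developing nervous system. It gave 1018, 1359, 1296 and 1158 normalized counts in the controls and 1837, 1624, 1649.7 and 1439.55 in the CKO, replicates 1 to 4. The lowest CKO sample, replicate 4, lay above the highest control, replicate 2. The fold was 1.36 (95% interval 1.17 to 1.58; log2FC 0.44, SE 0.0969, edgeR adjusted p = 0.0046, not past the cutoff), and the log2FC ran from 0.37 to 0.52 with 1 sample left out.

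*Epha5* (ENSMUSG00000029245, chromosome 5, 84054761 to 84417382, minus strand), which with *Epha6* forms the graded receptor system of mouse ganglion cells, had the most reads of the 10 genes. Its normalized counts were 3225, 3330.4, 2875 and 3550.2 in the controls and 3878, 3837, 3515 and 3722 in the CKO. Control replicate 4 lay above CKO replicate 3, so the genotypes overlapped. The fold was 1.15 (95% interval 1.04 to 1.28; log2FC 0.21, SE 0.0662, edgeR adjusted p = 0.0328). It met the looser cutoff of 0.05 in the fit of all samples, but not without control replicate 1 (edgeR adjusted p = 0.0742) or without CKO replicate 1, 2 or 4 (0.0727, 0.0680 and 0.0657).

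*Epha4* (ENSMUSG00000026235, chromosome 1, 77367185 to 77515088, minus strand), whose product also binds ephrin-B ligands, was the 1 gene of the 6 receptors with a log2FC below 0. It gave 453, 478, 472 and 553 normalized counts in the controls and 322, 444, 416 and 433 in the CKO. The genotypes did not overlap, although CKO replicate 2 was close to control replicate 1. The fold was 0.824 (95% interval 0.706 to 0.963; log2FC -0.28, SE 0.102, edgeR adjusted p = 0.0559), which did not pass. Its adjusted p was below 0.05 in 7 of the 19 alternatives, among them those with embryo sex (0.0365) and the replicate block (0.0309), and below 0.001 in none. With 1 sample left out the log2FC ran from -0.19 (CKO replicate 1 left out) to -0.32 (CKO replicate 2 left out).

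*Epha3* and *Epha7*, which encode receptors with the same kinase fold, overlapped between the genotypes. *Epha3* (ENSMUSG00000052504, chromosome 16, 63543534 to 63864175, minus strand) had 827 ± 71.3 normalized counts in the controls (range 750.1 to 906) and 888 ± 61.3 in the CKO (range 834 to 972; SD, n = 4). Its fold was 1.08, with a 95% interval of 0.957 to 1.21 (edgeR adjusted p = 0.318). *Epha7* (ENSMUSG00000028289, chromosome 4, 28813131 to 28967499, plus strand) had 227 ± 30.5 and 236 ± 19.9 normalized counts. Its fold was 1.04, with a 95% interval of 0.884 to 1.23 (edgeR adjusted p = 0.711). The misses do not show that these receptors were at equal levels, but the intervals leave out an increase of the size fitted for *Epha6*.

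**Figure D3:**
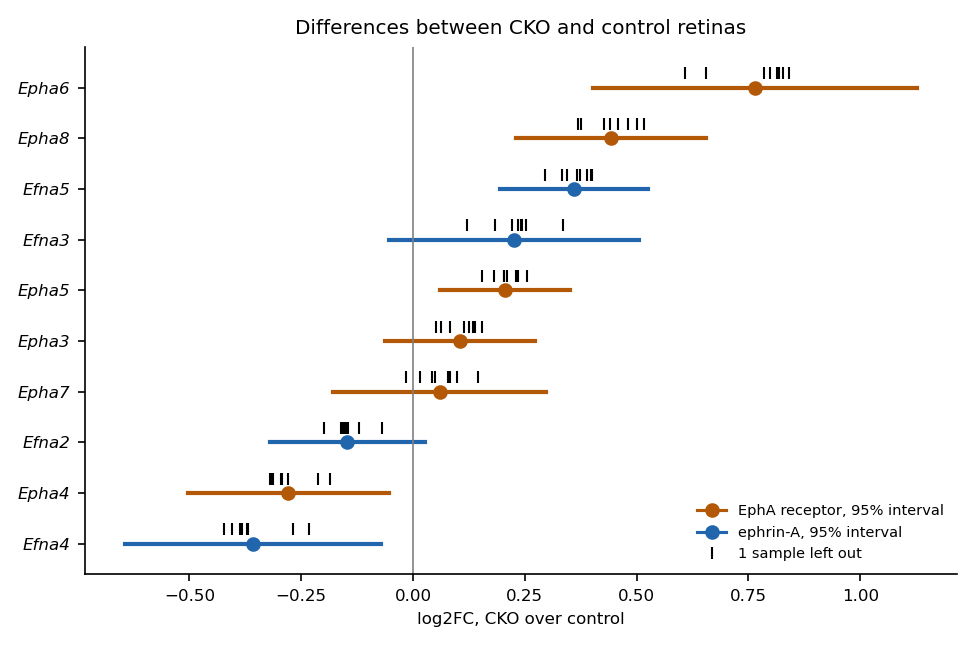
Log2FC (CKO over control, edgeR) of each gene with its 95% interval (brown for receptors, blue for ephrin-As) and, above it, a black tick for each of the 8 fits with 1 sample left out. *Epha6* is at the upper end at 0.76 and *Efna4* at the lower end at -0.36.

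Among the ligands, *Efna5* (ENSMUSG00000048915, chromosome 17, 62604184 to 62881317, minus strand) had the smallest p-value of the 10 genes by edgeR, where by DESeq2 *Epha6* had it. Ephrin-A5 is a ligand of nasal retina and of the midbrain target of ganglion cell axons, and it can also bind the receptor EphB2. The normalized counts were 827, 824, 672 and 800.0 in the controls and 976, 938, 1035 and 1059 in the CKO. The lowest CKO sample lay above the highest control, and control replicate 3 was below the other controls. The means were 781 ± 73.2 and 1002 ± 54.8 (SD, n = 4), a fold of 1.28 (95% interval 1.14 to 1.44; log2FC 0.36, SE 0.0751, edgeR adjusted p = 0.0036), and without control replicate 3 the log2FC was 0.30 (edgeR adjusted p = 0.0020).

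*Efna4* (ENSMUSG00000028040, chromosome 3, 89333390 to 89338028, minus strand) went the other way. It gave 274, 203, 213 and 189 normalized counts in the controls and 172, 143, 183 and 189 in the CKO. The genotypes were separated only by a narrow gap, between control replicate 4 at 189.36 and CKO replicate 4 at 188.88. The fold was 0.780 (95% interval 0.639 to 0.952; log2FC -0.36, SE 0.131, edgeR adjusted p = 0.0552), and without control replicate 1, the highest, the log2FC was -0.23 (edgeR adjusted p = 0.171). *Efna3* (ENSMUSG00000028039, chromosome 3, 89313899 to 89322965), on the same strand at a distance of 10.4 kb, had 145 ± 26.9 normalized counts in the controls and 169.6 ± 11.6 in the CKO. Its fold was 1.17 (95% interval 0.964 to 1.42, edgeR adjusted p = 0.198), and its log2FC was 0.12 without control replicate 1 and 0.34 without control replicate 3. Exons of *Efna3* and *Efna4* share 344 and 168 bases with antisense genes, whose own counts were at most 8 and 26 reads per sample; strand was not recorded, so reads there cannot be told apart. *Efna2* (ENSMUSG00000003070, chromosome 10, 80179482 to 80190010, plus strand), the ligand with the highest level per length, had 649 ± 74.9 and 585 ± 25.9 normalized counts, with overlapping samples (576 to 752 and 548 to 604). Its fold was 0.903 (95% interval 0.801 to 1.02, edgeR adjusted p = 0.177).

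The receptors and the ligands were then summed per length, as a description with no test. The 6 receptors together had 677 ± 46.9 normalized counts per kb in the controls (633 to 726) and 829 ± 48.3 in the CKO (781 to 894), and the samples of the genotypes did not overlap. The 4 ephrin-As together had 695 ± 21.7 in the controls (680.3 to 727) and 699.99 ± 30.9 in the CKO (672 to 731), with overlap. That overlap depends on the division by length: summed as normalized counts with no length, the ephrin-As had 1784 to 1816 in the controls and 1853 to 2018 in the CKO, higher in each CKO sample. The ratio of ligand to receptor was 1.03 ± 0.0967 in the controls and 0.848 ± 0.0828 in the CKO, and its highest CKO sample (0.93694) met the lowest control (0.93704). With principal transcript lengths the ratio was 0.551 ± 0.0572 and 0.466 ± 0.0414 and with no length 0.288 ± 0.0230 and 0.264 ± 0.0229, both with overlapping samples, and both chosen after seeing the data. Its size and the separation of the genotypes thus rest on the lengths used, whereas the receptor sum did not overlap between the genotypes under any of the 3 scalings. Within the ligand sum the make-up differed more than the total. *Efna5* held 27.9% ± 3.33 of it in the controls and 35.5% ± 0.688 in the CKO (SD, n = 4), and *Efna4* 19.8% ± 3.33 and 15.3% ± 1.38; neither overlapped between the genotypes. *Efna2* held the largest share in each of the 8 samples (37.5% to 48.6%). Within the receptor sum, *Epha6* held 7.09% ± 1.58 in the controls and 9.85% ± 0.864 in the CKO, and *Epha4* 8.97% ± 0.629 and 6.09% ± 1.10, again with no overlap. The share of *Epha3* did not overlap either (13.5% to 14.7% in the controls and 12.1% to 12.5% in the CKO). Its own counts did overlap, so a share can separate the genotypes where the gene itself does not. *Epha8* was the largest part in both genotypes (34.1% to 42.9% and 39.1% to 43.6%), but with principal transcript lengths *Epha5* was (52.7% to 56.4% and 51.6% to 54.6%). The sizes of the shares depend on the lengths used; those of *Efna5*, *Efna4*, *Epha6* and *Epha4* kept the 2 genotypes apart, in the same direction, with each of them.

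**Figure D4:**
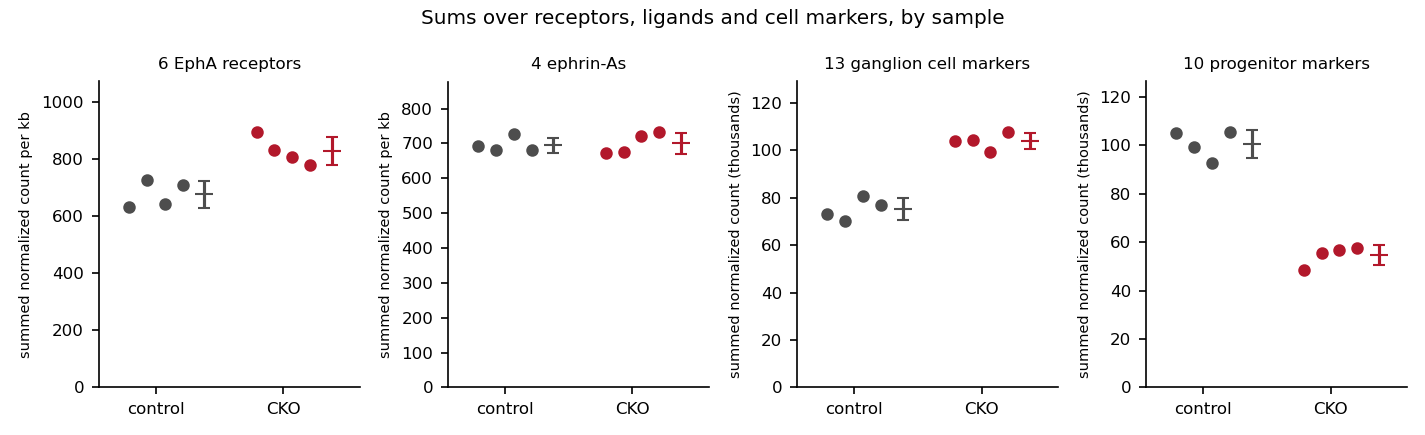
Sums over the 6 receptors and the 4 ephrin-As (normalized counts per kb) and over 13 ganglion cell and 10 progenitor markers (normalized counts), with 1 point per sample and the mean and SD beside the points. The receptor and ganglion cell sums are higher in each CKO sample than in each control sample, the progenitor sum is lower, and the ephrin-A sums overlap.

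Markers of retinal cell types moved between the genotypes too. At the cutoff of 0.001 used for the calls below, 3.64% of all genes were higher and 4.97% lower. The summed normalized counts of 13 ganglion cell markers, neurons in which several of these genes are used, were 70313 to 80818 in the controls and 99376 to 107598 in the CKO, a ratio of means of 1.38, and 8 of the 13 rose while none fell. Those of 10 progenitor markers were 92866 to 105367 and 48453 to 57597, a ratio of 0.542, with 7 lower and 1 higher. Neither list had a marker at 0 or under a mean of 20 normalized counts. The sums of 7 photoreceptor precursor markers (12692 to 14139 and 13375 to 14762) and of 8 amacrine and horizontal cell markers (6884 to 8039 and 7519 to 8206) overlapped between the genotypes, with none of the former called and 1 of the latter higher and 1 lower. Of tissues beside the retina, 7 endothelial markers summed to 4364 to 4646 and 2643 to 3526, with 2 lower, and 8 pigment epithelium markers to 252 to 447 and 125 to 162, with 1 lower. Most of the endothelial sum was *Kdr* (mean 4104 in the controls and 2931 in the CKO), which with *Cldn5* made up the 2 lower. The other 4 endothelial markers tested had a log2FC above 0 and did not pass, and the median over the 6 tested was 0.06. The 8 periocular mesenchyme markers summed to 202 to 288 and 271 to 581, with 1 lower, and the 8 lens markers to 35.4 to 66.5 and 60.3 to 121, with none called of the 2 tested. The 7 blood markers (377 to 2398 and 599 to 1917) and 7 macrophage markers (689 to 852 and 600.5 to 784) overlapped, with none called. The part of these shifts in the values of the Eph and ephrin genes was not tested, and in bulk retina fewer cells of a type and less RNA per cell cannot be told apart.

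The rest of the EphA and ephrin-A family held 1 gene that passed the cutoff, among 3 tested, where 8.61% of all genes passed. *Epha2* (chromosome 4, 141301240 to 141329384, plus strand), a receptor that is used in many epithelia and is not among the 10, gave 409, 424, 474 and 412 normalized counts in the controls and 204, 262, 261 and 286 in the CKO. No CKO sample reached a control sample, and *Epha2* fell to a fold of 0.589 (95% interval 0.506 to 0.685; log2FC -0.76, SE 0.0998, edgeR adjusted p = 1.8e-04), which passed in each of the 19 alternatives. *Epha10*, whose product lacks kinase activity, had 302 ± 44.9 and 426 ± 137 normalized counts (edgeR adjusted p = 0.0659); CKO replicate 1 held 628 and the other CKO samples 329 to 376, and the log2FC of 0.51 was 0.24 without it. *Efna1*, a ligand used in blood vessels, had 33.4 ± 6.35 and 27.3 ± 9.91 normalized counts (edgeR adjusted p = 0.392), and *Epha1*, with 4 to 10 reads in a sample, did not pass the filter on low counts.

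Of the 8 EphB receptors and ephrin-Bs, the sister class with transmembrane ligands, 1 fell (*Ephb4*, a receptor of vein endothelium, log2FC -0.81, edgeR adjusted p = 3.8e-04) and 7 did not pass; *Ephb4* missed the cutoff without control replicate 1, 2 or 4 or CKO replicate 2 or 3 (edgeR adjusted p = 0.00150, 0.00158, 0.00105, 0.00172 and 0.00158) and with the replicate block (0.0020). The median log2FC of these 8 was -0.06, and 8.61% of all genes passed the cutoff.

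Downstream of the receptors, 33 adaptors and effectors were tested, of which 3 rose, 2 fell and 28 did not pass (median log2FC 0.03). At the same cutoff 3.64% of all genes were higher and 4.97% lower. *Grb10*, an adaptor that binds receptor tyrosine kinases, fell by a log2FC of -0.78 ± 0.0796 (SE; edgeR adjusted p = 3.3e-05), with 15074 ± 1820.3 normalized counts in the controls and 8745 ± 162 in the CKO (SD, n = 4), and passed in each of the 19 alternatives. *Sipa1l1*, a GTPase activator that EphA4 signaling uses at synapses, named after its values were seen, fell by a log2FC of -0.35 ± 0.0555 (SE; edgeR adjusted p = 6.2e-04), with 1825 ± 101 normalized counts in the controls and 1427 ± 77.7 in the CKO. The genes that rose were *Vav3* and *Vav2*, guanine nucleotide exchange factors that bind activated Eph receptors, and *Pak1*, a kinase downstream of Rac and Cdc42, with log2FC of 0.40, 0.35 and 0.38 (edgeR adjusted p = 4.5e-04, 5.8e-04 and 5.3e-04). These 4 calls depended on the fit: *Vav3*, *Vav2*, *Pak1* and *Sipa1l1* missed the cutoff in 6, 8, 8 and 10 of the 19 alternatives. In that order, the edgeR adjusted p was 0.0024, 0.0027, 0.0031 and 0.0029 without control replicate 1 and 0.0017, 0.0031, 0.0024 and 0.0014 without control replicate 2. Leaving out CKO replicate 2 gave 0.0018, 0.0021, 0.0029 and 0.0026. Leaving out CKO replicate 3 gave 0.0011, 0.0010, 0.0014 and 0.0012, and leaving out CKO replicate 4 gave 0.0024, 0.0027, 0.0016 and 0.0034. *Vav2*, *Pak1* and *Sipa1l1* also missed without control replicate 4 (0.0032, 0.0018 and 0.0024), and *Pak1* and *Sipa1l1* without CKO replicate 1 (0.0013 and 0.0015). With the replicate block the 4 had 0.0015, 0.0028, 0.0039 and 0.0039, *Sipa1l1* had 0.0015 with embryo sex and with 1 surrogate variable, and *Vav2* had 0.00103 with library totals.

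Of 11 genes for cleavage, phosphatases and co-receptors of ephrin-A signaling, 2 rose and 9 did not pass (median log2FC 0.17), where 3.64% of all genes rose. *Ptpro*, a receptor phosphatase that acts on Eph receptors in retinal axons, rose by a log2FC of 0.63 ± 0.0472 (SE; edgeR adjusted p = 3.6e-06), with 895 ± 33.4 normalized counts in the controls and 1382 ± 18.0 in the CKO (SD, n = 4). *Ntrk2*, the receptor of BDNF and a partner of ephrin-As in axons, rose by a log2FC of 1.03 ± 0.114 (edgeR adjusted p = 5.5e-05), with 995 ± 174 in the controls and 2036 ± 176 in the CKO. Both passed in each of the 19 alternatives.

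The factors that set the retinal axes bear on where EphA receptors and ephrin-As are expressed. Of 18 such factors tested, 7 fell and 11 did not pass (median log2FC -0.94), where 4.97% of all genes fell. The 4 with the smallest p-values were *Cyp26a1*, which degrades retinoic acid (log2FC -1.68 ± 0.106, SE; edgeR adjusted p = 1.1e-06), *Aldh1a3*, which makes it (-5.05 ± 0.324; 1.2e-06), the dorsal factor *Tbx3* (-1.15 ± 0.0971; 1.0e-05) and *Fgf8*, which had 22.5 ± 4.64 normalized counts in the controls and 0.739 ± 0.511 in the CKO (SD, n = 4; edgeR adjusted p = 3.0e-05). *Fgf8* passed the filter on low counts only through its control samples and was tested in 13 of the 19 alternatives. *Foxd1*, a factor of temporal retina named after its values were seen, fell by a log2FC of -1.24 ± 0.158 (edgeR adjusted p = 1.5e-04), with 242 ± 21.1 and 103 ± 26.8 normalized counts, and passed in each of the 19 alternatives.

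The likeness of other genes to the 2 members with the smallest p-values by edgeR, *Efna5* and *Epha6*, was measured as the root mean square difference of log2 normalized counts over the 8 samples, each gene centered on its control mean. Closest to *Efna5* were *Rbms1* (0.0407), *Hivep1* (0.0478) and *Pcdhga3* (0.0484), and closest to *Epha6* were *Syn3* (0.111), *Itga4* (0.118) and *Fras1* (0.127). This measure keeps the difference between the genotypes, so it favors genes with a log2FC near that of the member. In the order given, their log2FC were 0.36, 0.32 and 0.35, and 0.74, 0.80 and 0.84, and none of them passed the cutoff.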

How the data were processed

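Unstranded libraries of poly(A) RNA from 8 retina samples were sequenced in 50 cycles from 1 end. The authors aligned reads to mm10 with TopHat2 and deposited raw counts per gene and sample, made with HTSeq (tools also named in the submitters' processing notes). Versions, strand setting and annotation are not given in the sources used. Samples were grouped by their titles, and none was left out. The 3 litters and 2 days of collection are not tied to samples in the labels and could not enter a test. Each sample is a separate embryo, so p-values measure the spread between embryos. No library was found deposited more than once (chi-square per gene between samples of 1 genotype 3.22 to 17.5, a check for copies only).

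Genes with at least 20 normalized counts (median-of-ratios size factors) in at least 3 samples were tested in R 4.3.3 by edgeR 4.0.16 (quasi-likelihood test, TMM, genotype only, 2-sided), with Benjamini-Hochberg adjustment over all genes tested. The filter and the cutoff of 0.001 follow the study's methods; its tool, DESeq2, was run as an alternative. SE was derived as the absolute log2FC divided by the root of F. The code was tested on simulated data drawn with the spread of the control samples. There 82% of the genes changed by an absolute log2FC of 1 passed the cutoff of 0.001. Of those changed by 0.5, 26% passed, so a miss at such a size does not show equal levels. GENCODE M21 (GRCm38) held 28232 of the 28432 gene IDs. Alternatives were DESeq2 1.42.0, limma 3.58.1 (voom), other scalings and filters, a cutoff of 0.05, the replicate block, embryo sex, 1 surrogate variable (sva 3.50.0) and leaving out samples. The cutoff of 0.05 was set on the fit reported, so a gene called at 0.001 could not miss in that alternative. The members, gene lists and tests were chosen with earlier results of these data known. The text names the 10 members, the other EphA and ephrin-A genes, up to 4 called genes per Eph or axis list in order of p-value, the 3 genes most like each of 2 members (mean of at least 100 normalized counts, pseudocount 1) and called neighbors of members.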

Additional observations from a re-analysis of the deposited data

Results flagged for a closer look

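Within a genotype, a sample stood apart from the other 3 by Dixon's test in 9 of 96 groups of 4 samples. Chance gives about 1 in 20 for independent groups of unselected genes. Many of these genes were picked by their values here, and all were read in the same samples, so that rate is no benchmark. Of the 20 groups of the 10 genes, 2 were marked, both of *Epha6*: control replicate 3 with 163 normalized counts against 281 to 293 in the other controls, and CKO replicate 1 with 518 against 395 to 415. CKO replicate 1 stood apart for 3 other genes. It held 628 normalized counts of *Epha10* (others 329 to 376), 1613 of *Fgf15* (others 2421 to 2468) and 2479 of *Kdr* (others 3039 to 3145). Control replicate 3 stood apart for *Cldn5*, with 202 (others 153 to 158), and for *Hivep1*, with 1709 (others 2099 to 2144). CKO replicate 4 did so for *Cntn2*, with 14336 (others 12106 to 12347), and CKO replicate 3 for *Elavl4*, with 5712 (others 6142 to 6223).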

How the results depend on the processing

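The count of EphA and ephrin-A genes higher in the CKO, 0 in the fit reported, was 3 by DESeq2 and 3 with no filter on low counts (*Epha6*, *Epha8* and *Efna5* in both), 4 at an adjusted p below 0.05, and 1 (*Epha6*) with embryo sex, with 1 surrogate variable, and without control replicate 3 and CKO replicate 1 together, a choice made after seeing the data. It was 0 with limma voom, the other scalings, filterByExpr and each single sample left out (range 0 to 0), and no setting called a gene of the 10 lower (range 0 to 0). The log2FC of each of the 10 kept its sign in each of the 19 alternatives, except that of *Epha7*, which was -0.015 without control replicate 3 (up to 0.15 without another sample). Same-numbered samples of the genotypes did not deviate together (r = 0.14, -0.15, 0.06 and -0.12 for replicates 1 to 4), so the numbers do not pair them; with the replicate block 0 members higher and 0 lower were called, and 676 of all genes against 1196 without it. Of all genes, 2390 were called by DESeq2, 2055 with no filter, 4619 at 0.05 and 686 to 1553 with 1 sample left out. The cause of these changes was not tested. The ligand to receptor ratio, 1.03 in the controls and 0.848 in the CKO, was 0.551 and 0.466 with principal transcript lengths and 0.288 and 0.264 with none. Scaling by library totals moved the median log2FC of all genes from 0.01 to -0.02.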

Other observations

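The nearest tested protein coding genes on either side of the 10 genes were 18 others, of which 1 passed the cutoff (8.61% of all genes did). It was *Tecrl*, 699.6 kb from *Epha5*, which rose by a log2FC of 2.82 ± 0.245 (SE; edgeR adjusted p = 1.2e-05), with 14.4 ± 5.03 normalized counts in the controls and 102 ± 20.9 in the CKO (SD, n = 4), while *Epha5* had a log2FC of 0.21. *Tecrl* passed the filter on low counts through its CKO samples (86.4 to 132), as the controls held 9.37 to 21.1. On chromosome 3, *Efna1*, *Efna3* and *Efna4* lie in a row on 1 strand and had log2FC of -0.31, 0.23 and -0.36, none past the cutoff by edgeR.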
